A study of Homo sapiens with 9 samples.

Results

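The genes described here are 10 genes of cellular iron uptake, iron storage and hepcidin control: TFRC, TFR2, SLC11A2, FTH1, FTL, SLC40A1, HAMP, HFE, HJV and IREB2. They were chosen by name and matched to the Ensembl identifiers of the count table, and all 10 of 10 were found among 60664 genes and passed the filter on low counts, as did 17207 genes in all. The cells were Huh-7, a human hepatocellular carcinoma line. The parental cells (WT) were compared with a line lacking VTRNA1-1 (1-1 KO) and a line lacking VTRNA1-2 (1-2 KO), with 3 libraries per line and 9 in all. Vault RNAs are short non-coding transcripts of RNA polymerase III, named after the vault particle in which a minor share of them is found. None of the lines was treated, and all were grown in the same medium. Per the study's methods, the WT and 1-1 KO cells came from another laboratory and the 1-2 KO cells grew from a single edited WT cell, so each knockout is represented by 1 line and a property of that line cannot be told apart from the loss of the vault RNA. The study describes the libraries of a line as biological replicates. The labels do not say whether they came from separate cultures, and p-values measure the spread between these libraries, which may in part be technical.

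Iron enters hepatocytes mainly as iron-loaded transferrin, which binds transferrin receptor 1 (TFRC) and is taken into endosomes, from where DMT1 (SLC11A2) moves the iron to the cytosol. Iron that is not used is stored in ferritin, a shell of heavy (FTH1) and light (FTL) chains, and leaves the cell through ferroportin (SLC40A1). Hepcidin (HAMP) is a peptide hormone made in the liver that binds ferroportin and causes its degradation. Its transcription rises when bone morphogenetic proteins (BMPs) signal through the co-receptor hemojuvelin (HJV) and SMAD proteins, a path in which HFE and transferrin receptor 2 (TFR2) report transferrin-bound iron, and also when interleukin 6 signals through STAT3. Inside the cell, iron regulatory proteins such as IRP2 (IREB2) bind hairpins called iron-responsive elements (IREs) when iron is scarce. An IRE in a 5′ UTR then blocks translation, whereas IREs in a 3′ UTR protect the mRNA from decay. Elements of the latter kind are known in TFRC and in an isoform of SLC11A2.

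The hairpins were searched in the UTRs of the canonical GENCODE 44 transcripts (GRCh38) as an unpaired C, 5 paired bases and the loop CAGTGN. They are shown because they tell which members carry the element and in which UTR. In the 7 sequences found, each of 28 bases and read 5′ to 3′ in the sense of the mRNA, capitals mark the loop. TFRC held 4 in its 3′ UTR, and FTH1, FTL and SLC40A1 held 1 each in the 5′ UTR.
TFRC 3′ UTR, chr3:196050979-196051006, minus strand: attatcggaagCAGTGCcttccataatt
TFRC 3′ UTR, chr3:196050575-196050602, minus strand: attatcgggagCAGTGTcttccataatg
TFRC 3′ UTR, chr3:196050510-196050537, minus strand: tgtatcggagaCAGTGAtctccatatgt
TFRC 3′ UTR, chr3:196050463-196050490, minus strand: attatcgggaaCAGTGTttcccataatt
FTH1 5′ UTR, chr11:61967574-61967601, minus strand: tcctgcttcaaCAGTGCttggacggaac
FTL 5′ UTR, chr19:48965336-48965363, plus strand: tcttgcttcaaCAGTGTttggacggaac
SLC40A1 5′ UTR, chr2:189580661-189580688, minus strand: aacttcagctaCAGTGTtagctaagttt
Of 20046 coding transcripts, 141 (0.703%) held a match in either UTR, 19 (0.0948%) in the 5′ UTR and 122 (0.609%) in the 3′ UTR. For the other 6 members the search found no match, which says only that this pattern is not in the UTRs of the transcript searched.

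The HAMP promoter is shown because HAMP was the member that differed most between the lines and because both signals of hepcidin control reach it. The 250 bases before the RefSeq start (GRCh38.p14, chr19:35282278-35282527, plus strand) held 1 match each of GGCGCC, the core of BMP-responsive elements, and of TTCNNNGAA, the pattern bound by STAT proteins. Both patterns read the same on either strand and do not overlap here, and capitals mark them.
HAMP promoter: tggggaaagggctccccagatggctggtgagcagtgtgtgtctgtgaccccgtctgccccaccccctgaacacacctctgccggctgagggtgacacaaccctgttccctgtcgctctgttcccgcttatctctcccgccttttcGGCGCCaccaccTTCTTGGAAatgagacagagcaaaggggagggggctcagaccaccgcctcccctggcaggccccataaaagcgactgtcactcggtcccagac
The matches began 105 and 93 bases before the start. Over 35116 RefSeq promoters of 300 bases, 19.2% held GGCGCC, 7.66% held TTCNNNGAA and 0.766% held both. Promoters were in the table for 8 of the 10 members. Among them HJV also held TTCNNNGAA, and TFRC and IREB2 held GGCGCC.

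Total counts were between 32384469 and 41782387 per library. Reads of the knocked-out genes did not check the labels: VTRNA1-1 had at most 1 count and VTRNA1-2 had 0 in every library, as polyadenylated RNA was sequenced. All 10 hepatocyte markers were detected in every line, and their summed level was 13922 to 14715 CPM (counts scaled to library size) in WT, 29883 to 30775 in 1-1 KO and 20256 to 22177 in 1-2 KO. Most of the rise in this sum came from ALB and AFP. ALB averaged 2532 CPM in WT, 9427 in 1-1 KO and 4739 in 1-2 KO, and AFP 1759, 8167 and 7419 CPM. Only HNF4A was lower than WT in 1-1 KO (248 compared to 262 CPM). Lower than WT in 1-2 KO were FGA (565 compared to 1109 CPM), TTR (71.6 and 111), TF (1309 and 1527) and APOB (5178 and 5460). The remaining markers were higher there. The difference in the sum moved with the lines, and its part in the results below was not tested. Summed markers of macrophages stayed at or below 3.90 CPM and those of erythroid cells at or below 0.0490 CPM, with C1QA and HBB at 0 in every line. Endothelial markers were between 8.22 and 12.9 CPM in WT and 1-1 KO and at or below 2.16 CPM in 1-2 KO, with KDR at 0 throughout, and stellate cell markers were between 82.8 and 86.1 CPM in WT, 139 and 147 in 1-1 KO and 167 and 186 in 1-2 KO. Of the stellate markers, RELN made up most (71.6, 127 and 158 CPM on average), whereas DCN and LRAT stayed below 0.1 CPM, and their part in the results was not tested. In bulk RNA, fewer cells that express a gene and less RNA per cell cannot be told apart. Replicate 1 of 1-2 KO stood apart for FTH1: 52 genes were over 2-fold higher there than in both other 1-2 KO libraries. WT replicate 3 had 25 such genes within WT, and 18 genes were in both sets. Results on FTH1 are given with and without 1-2 KO replicate 1.

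Per length of transcript, the storage genes were by far the most abundant members. In WT, reads per kilobase of exon scaled to library size (RPKM) were 4954 ± 202 (SD, n = 3) for FTL and 214 ± 42.2 for FTH1. The uptake receptor TFRC followed at 47.2 ± 0.764 RPKM, then SLC40A1 at 32.6 ± 0.537 and IREB2 at 25.3 ± 0.849. SLC11A2 lay at 6.90 ± 0.163 RPKM, HJV at 3.42 ± 0.304, TFR2 at 2.72 ± 0.181, HFE at 1.51 ± 0.158 and HAMP, the lowest, at 0.762 ± 0.0748. No neighbours in this order overlapped over the 3 WT libraries. The order was not the same in the knockouts. In 1-1 KO, SLC40A1 (60.0 ± 0.992 RPKM) stood above TFRC (39.4 ± 0.312), and TFR2 (3.79 ± 0.108) above HJV (1.74 ± 0.223). In 1-2 KO, HAMP (2.79 ± 0.836 RPKM) stood above HJV (2.65 ± 0.177) and HFE (0.937 ± 0.0456), with the libraries of HAMP and HJV overlapping. These levels used the length of all annotated exons. With the length of the canonical transcript, HAMP in WT came to 5.37 RPKM, above TFR2 (4.77), HJV (3.88) and HFE (1.66), its libraries then overlapping those of TFR2. The changes of order in 1-1 KO also depended on the length. Per canonical transcript, TFRC (137 RPKM) stood above SLC40A1 (76.0) in 1-1 KO without overlap, as it did in WT. TFR2 then stood above HJV in every line.

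**Figure D1:**
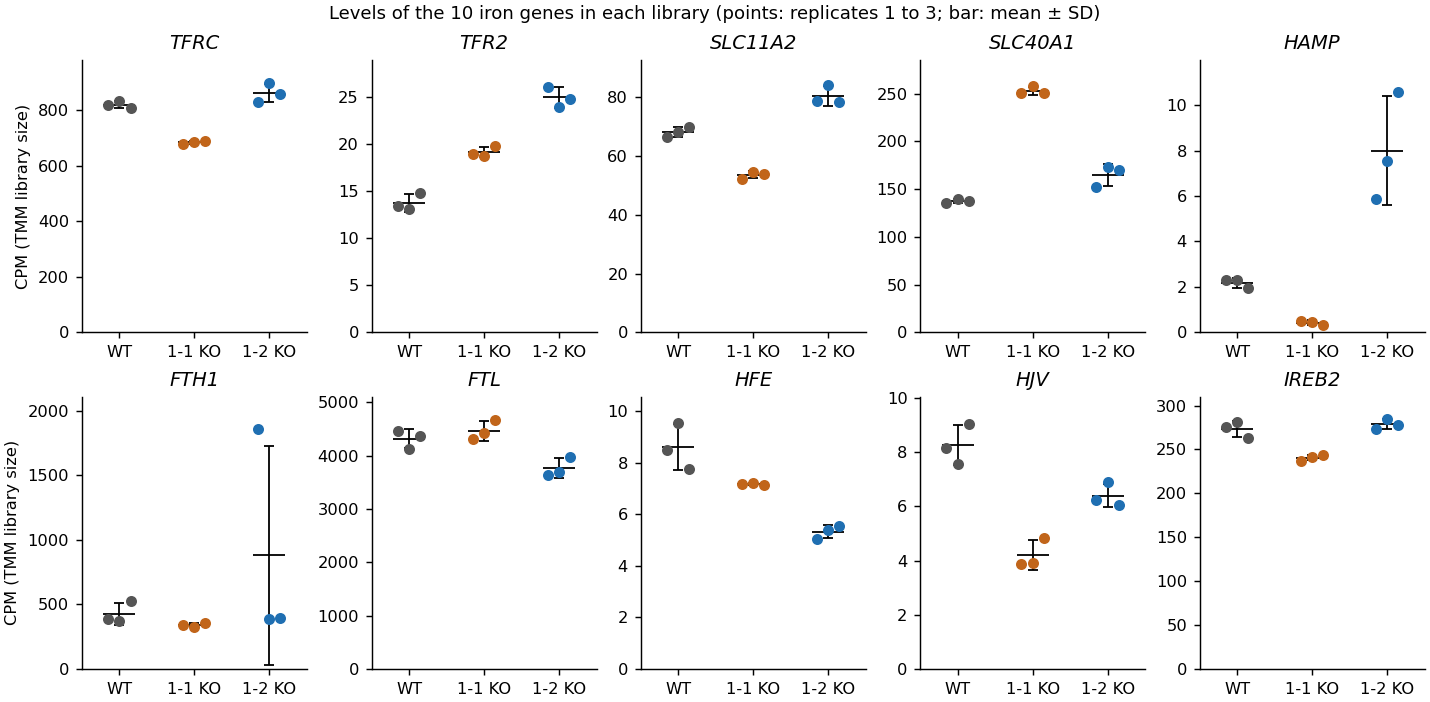
Levels of the 10 iron genes in CPM (y axes, from 0, counts scaled with TMM library sizes) in each library of WT (grey), 1-1 KO (orange) and 1-2 KO (blue). Points are replicates 1 to 3 from left to right, the horizontal bar is the mean and the error bars are the SD. HAMP runs from 0.343 to 10.6 CPM, and in the FTH1 panel a single 1-2 KO library lies at 1863 CPM.

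Compared to WT, 8 of 10 members were differentially expressed in 1-1 KO, 2 higher and 6 lower, at an adjusted p under 0.05 (edgeR's quasi-likelihood test, adjusted by Benjamini-Hochberg over all genes tested). Of all genes tested in this comparison, 63.4% were called, 32.5% higher and 30.9% lower. In 1-2 KO, 7 members were called, 4 higher and 3 lower, beside 54.4% of all genes (28.2% higher and 26.2% lower). Between the knockouts all 10 members were called, 7 higher and 3 lower in 1-2 KO, beside 65.3% of all genes (33.1% higher and 32.2% lower). The median log2 fold change of the members was -0.26 in 1-1 KO and 0.15 in 1-2 KO, and that of all genes tested was 0.01 and 0.02. Libraries of 1-1 KO and WT did not overlap for 9 members (68.9% of all genes), those of 1-2 KO and WT for 7 (58.4%) and those of the knockouts for 10 (69.8%). Both comparisons with WT use the same 3 WT libraries. Only HAMP exceeded 2-fold among the members called in either knockout compared to WT. Without 1-2 KO replicate 1, the counts were 2 higher and 7 lower in 1-1 KO, 5 higher and 3 lower in 1-2 KO, and 6 higher and 3 lower between the knockouts.

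**Figure D2:**
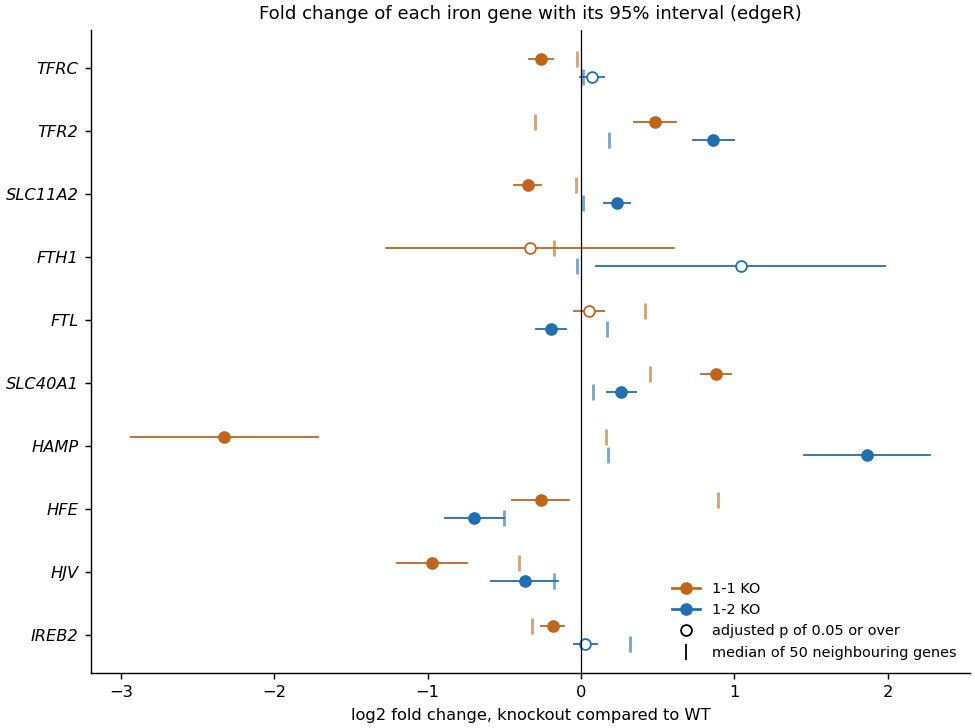
Log2 fold change of each member compared to WT (x axis) in 1-1 KO (orange) and 1-2 KO (blue), with 95% intervals from the edgeR fit. Filled points passed an adjusted p of 0.05, open points did not, and short vertical ticks give the median fold change of the 50 nearest tested genes on the chromosome. HAMP lies at -2.32 in 1-1 KO and at 1.86 in 1-2 KO, and the intervals of FTH1 are the widest of the 10 members.

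HAMP (ENSG00000105697, chr19:35280716-35285143, plus strand), the gene of hepcidin, was lower than WT in 1-1 KO and higher in 1-2 KO. Its reads numbered 91, 87 and 61 for WT, 22, 18 and 14 for 1-1 KO, and 247, 300 and 424 for 1-2 KO. In CPM these were 2.29, 2.32 and 1.93 in WT, 0.520, 0.438 and 0.343 in 1-1 KO, and 5.86, 7.53 and 10.6 in 1-2 KO. The lines did not overlap in any pair. HAMP fell 5.01-fold in 1-1 KO (log2 fold change -2.32, SE 0.28, adjusted p = 5.90e-06) and rose 3.64-fold in 1-2 KO (1.86, SE 0.19, adjusted p = 1.33e-06). Between the knockouts it was 18.2-fold higher in 1-2 KO (log2 fold change 4.19, SE 0.24, adjusted p = 2.09e-09). It remained a low transcript throughout, and the 1-1 KO values rest on 14 to 22 counts per library. With any single library left out, its log2 fold change ranged from -2.48 to -2.18 for 1-1 KO and from 1.61 to 2.05 for 1-2 KO.

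HJV (ENSG00000168509, chr1:146017468-146036746, minus strand), the BMP co-receptor, was lower than WT in both knockouts. It was measured at 8.17, 7.57 and 9.04 CPM in WT, 3.88, 3.91 and 4.83 CPM in 1-1 KO, and 6.24, 6.88 and 6.06 CPM in 1-2 KO, so that WT was highest, 1-2 KO intermediate and 1-1 KO lowest, with no overlap. The log2 fold changes were -0.97 in 1-1 KO (SE 0.11, adjusted p = 1.97e-06) and -0.37 in 1-2 KO (SE 0.10, adjusted p = 0.00738), and 0.60 between the knockouts (SE 0.11, adjusted p = 0.000185). The 50 nearest tested genes had medians of -0.40, -0.17 and 0.45 in the same comparisons. With these medians subtracted, HJV was no longer called in 1-2 KO (-0.19, adjusted p = 0.132) or between the knockouts (0.16, adjusted p = 0.215).

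HFE (ENSG00000010704, chr6:26087281-26098343, plus strand), an MHC class I-like protein that binds both transferrin receptors, was likewise lower in both knockouts. Its level was 8.47, 9.55 and 7.77 CPM in WT, 7.18, 7.22 and 7.13 CPM in 1-1 KO, and 5.03, 5.37 and 5.54 CPM in 1-2 KO. The 3 lines did not overlap, and 1-2 KO was lowest. The log2 fold change was -0.26 in 1-1 KO (SE 0.09, adjusted p = 0.0162), -0.70 in 1-2 KO (SE 0.09, adjusted p = 1.25e-05) and -0.43 between the knockouts (SE 0.09, adjusted p = 0.000642). The call in 1-1 KO was lost without WT replicate 2 (-0.18, adjusted p = 0.0952). HFE lies in the histone gene cluster, and 19 of its 50 neighbours were histone genes. The median log2 fold change of all 50 neighbours was 0.90 for 1-1 KO, -0.50 for 1-2 KO and -1.26 for the direct comparison. Relative to these medians, HFE was lower in 1-1 KO by a larger amount (-1.16, adjusted p = 5.60e-08), was not called in 1-2 KO (-0.19, adjusted p = 0.0869) and turned higher in 1-2 KO than in 1-1 KO (0.83, adjusted p = 1.98e-06). Its exons share 430 bases with H2BC4 on the opposite strand, a histone gene at 2.90 ± 0.175 CPM in WT, 27.4 ± 0.101 CPM in 1-1 KO and 0.786 ± 0.160 CPM in 1-2 KO. The sources used here do not state whether counting used the strand, and the part of H2BC4 reads in the HFE counts was not tested.

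TFR2 (ENSG00000106327, chr7:100620416-100642779, minus strand), the sensor of iron-loaded transferrin on hepatocytes, was higher in both knockouts. The libraries had 13.4, 13.1 and 14.8 CPM in WT, 19.0, 18.8 and 19.8 CPM in 1-1 KO, and 26.1, 24.0 and 24.8 CPM in 1-2 KO. All 3 lines were separate, with 1-2 KO highest. TFR2 rose 1.40-fold in 1-1 KO (log2 fold change 0.48, SE 0.06, adjusted p = 1.19e-05) and 1.82-fold in 1-2 KO (0.86, SE 0.06, adjusted p = 3.74e-08), and it was 1.30-fold higher in 1-2 KO than in 1-1 KO (adjusted p = 6.49e-05). The last of these was not called relative to its 50 neighbours, whose median was 0.50 between the knockouts (-0.12 after subtraction, adjusted p = 0.0961).

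Among the genes of iron uptake, TFRC (ENSG00000072274, chr3:196012511-196082153, minus strand) was lower in 1-1 KO and not called in 1-2 KO. Its levels were 819, 833 and 807 CPM in WT, 678, 686 and 689 CPM in 1-1 KO, and 829.6, 897 and 858 CPM in 1-2 KO. The 1-1 KO libraries lay below all others, whereas WT and 1-2 KO overlapped. The log2 fold change was -0.26 in 1-1 KO (SE 0.04, adjusted p = 1.86e-05) and 0.07 in 1-2 KO (95% interval -0.00 to 0.15, adjusted p = 0.103), and TFRC was 1.26-fold higher in 1-2 KO than in 1-1 KO (adjusted p = 1.42e-06). Without 1-2 KO replicate 1 the value in 1-2 KO was 0.10 (adjusted p = 0.0121), and with library size alone as the scaling it was 0.13 (adjusted p = 0.00349).

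SLC11A2 (ENSG00000110911, chr12:50979401-51028566, minus strand), the endosomal iron transporter, moved in opposite directions in the knockouts. It was at 66.6, 68.3 and 69.8 CPM in WT, 52.3, 54.6 and 53.9 CPM in 1-1 KO, and 78.6, 84.2 and 78.3 CPM in 1-2 KO. The lines were separate, in the order of 1-1 KO, WT and 1-2 KO. SLC11A2 fell 1.27-fold in 1-1 KO (log2 fold change -0.35, SE 0.04, adjusted p = 3.59e-06) and rose 1.18-fold in 1-2 KO (0.24, SE 0.04, adjusted p = 0.000164). The difference between the knockouts was 0.58 on the log2 scale (SE 0.04, adjusted p = 1.23e-08), and its neighbour medians lay between -0.03 and 0.12.

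SLC40A1 (ENSG00000138449, chr2:189560590-189583758, minus strand), the iron exporter and the target of hepcidin, was higher in both knockouts and most in 1-1 KO. The WT libraries had 135, 139 and 138 CPM, those of 1-1 KO 250.2, 258 and 251 CPM, and those of 1-2 KO 152, 173 and 170.3 CPM. Again no libraries of different lines overlapped. The rise was 1.84-fold in 1-1 KO (log2 fold change 0.88, SE 0.04, adjusted p = 7.34e-10) and 1.20-fold in 1-2 KO (0.26, SE 0.04, adjusted p = 0.000177). SLC40A1 was 1.53-fold lower in 1-2 KO than in 1-1 KO (adjusted p = 2.05e-08). Its neighbouring genes had medians of 0.45 in 1-1 KO, 0.08 in 1-2 KO and -0.41 between the knockouts. With these subtracted, SLC40A1 was at 0.43, 0.18 and -0.21 and was still called in each (adjusted p = 1.48e-06, 0.00325 and 0.000928). HAMP and SLC40A1 stood in opposite order in the knockouts, with HAMP lowest and SLC40A1 highest in 1-1 KO, but in 1-2 KO both were above WT.

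IREB2 (ENSG00000136381, chr15:78437431-78501453, plus strand), the gene of the RNA-binding protein IRP2, was slightly lower in 1-1 KO. It was at 276, 281 and 263 CPM in WT, 237, 242 and 243 CPM in 1-1 KO, and 274, 285 and 278 CPM in 1-2 KO. WT and 1-2 KO overlapped, and 1-1 KO lay below both. The log2 fold change was -0.18 in 1-1 KO (SE 0.035, adjusted p = 0.000379), 0.03 in 1-2 KO (95% interval -0.05 to 0.10, adjusted p = 0.527) and 0.21 between the knockouts (SE 0.035, adjusted p = 0.000101). Neighbouring genes had larger medians, at -0.32, 0.32 and 0.61. With these subtracted, all 3 values changed sign and were called, at 0.13, -0.29 and -0.39 (adjusted p = 0.00483, 8.63e-06 and 2.66e-07).

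FTL (ENSG00000087086, chr19:48965309-48966879, plus strand), the ferritin light chain, was not called in 1-1 KO and was lower in 1-2 KO. It was read at 4452, 4117 and 4375 CPM in WT, 4302, 4424 and 4672 CPM in 1-1 KO, and 3644, 3686 and 3977 CPM in 1-2 KO. The 1-2 KO libraries lay below the others, while WT and 1-1 KO overlapped. The log2 fold change was 0.05 in 1-1 KO (95% interval -0.05 to 0.15, adjusted p = 0.359), -0.20 in 1-2 KO (SE 0.05, adjusted p = 0.00234) and -0.24 between the knockouts (SE 0.05, adjusted p = 0.000290). The 50 neighbouring genes had medians of 0.42, 0.17 and -0.17. With these subtracted, FTL was lower than WT in 1-1 KO (-0.37, adjusted p = 8.72e-06) and not called between the knockouts (-0.07, adjusted p = 0.191).

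FTH1 (ENSG00000167996, chr11:61959718-61967634, minus strand), the ferritin heavy chain with the ferroxidase site, was decided by a single library. Its levels were 388, 372 and 526 CPM in WT, 343, 327 and 353 CPM in 1-1 KO, and 1863, 384 and 398 CPM in 1-2 KO. The first 1-2 KO library had 78459 counts, compared to 15275 and 15951 in the other two. With all libraries, FTH1 was not called in 1-1 KO (log2 fold change -0.33, SE 0.44, adjusted p = 0.529) or 1-2 KO (1.04, SE 0.44, adjusted p = 0.0591) and was called between the knockouts (1.37, SE 0.44, adjusted p = 0.0141; 0.0844 with DESeq2). Without 1-2 KO replicate 1, the value was -0.13 in 1-2 KO (adjusted p = 0.296) and 0.20 between the knockouts (adjusted p = 0.0994). In that same fit FTH1 was lower in 1-1 KO, where all 3 libraries lay below WT (-0.33, adjusted p = 0.00479). That call depended on the library left out. Over all fits without 1 library, the 1-1 KO value ran from -0.42 to -0.15, with adjusted p from 0.00479 to 0.807. Without replicate 2 or replicate 3 of 1-2 KO, it was called in 1-2 KO (1.40 and 1.39, adjusted p = 0.0108 and 0.0103).

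FTH1 has many processed pseudogenes of near-identical sequence, and reads could be split among them. The 25 annotated FTH1 pseudogenes together had 3677 to 4739 counts in WT, 3734 to 4168 in 1-1 KO, and 15370, 4769 and 4519 in the 3 libraries of 1-2 KO. They thus rose in the same library as FTH1, and 9 of the 12 that passed the filter were highest there. FTH1P3 went from 10.9 and 10.0 CPM in replicates 2 and 3 of 1-2 KO to 159 CPM in replicate 1, and FTH1P4 from 10.0 and 7.86 to 39.5 CPM. In WT replicate 3, which had the highest FTH1 level of its line, the same pseudogenes were at 18.9 and 16.2 CPM, compared to at most 3.89 and 4.19 CPM in the other WT libraries. FTL and its 16 pseudogenes showed no such rise, with 57 to 72 pseudogene counts in every library. The 52 genes that stood apart in 1-2 KO replicate 1 had a median transcript GC content of 59.8% and a median length of 835 bases. Over the 13351 tested genes that averaged 1 CPM or more, these were 47.6% and 3185 bases. Of the 52 genes, 18 (34.6%) were pseudogenes, compared to 5.53% of the 13351. The FTH1 transcript has 49.96% GC and 1203 bases. Its annotated exons share 1267 bases with BEST1 on the opposite strand, a gene at 0.452 CPM on average, too low for the naming rule. The part of GC content, length, pseudogene reads or BEST1 reads in the FTH1 value was not tested.

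**Figure D3:**
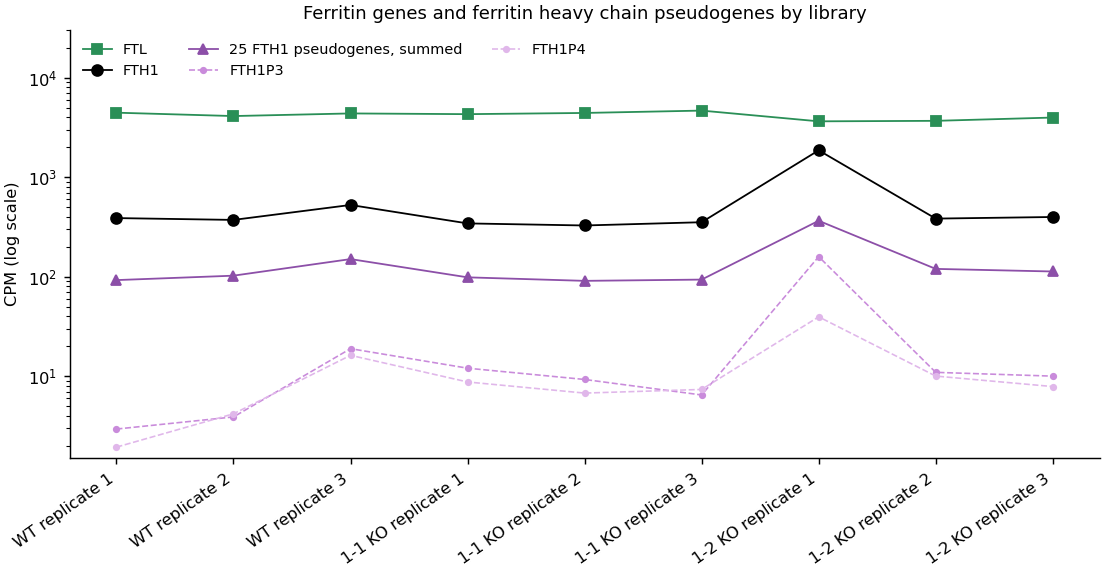
CPM (y axis, log scale) of FTL, FTH1, the 25 FTH1 pseudogenes summed, FTH1P3 and FTH1P4 in the 9 libraries (x axis). Lines join the values of a gene to guide the eye and carry no order in time. In 1-2 KO replicate 1, FTH1 reached 1863 CPM and the pseudogenes 365 CPM, whereas FTL was at 3644 CPM, the lowest of the 3 libraries of that line.

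The ratio of FTL to FTH1 per exon length does not depend on library scaling. It was 26.4, 25.5 and 19.1 in WT, 28.8, 31.1 and 30.5 in 1-1 KO, and 4.50, 22.1 and 23.0 in 1-2 KO. Its level depends on the length used. Per canonical transcript length it was 15.8, 15.3 and 11.5 in WT, 17.3, 18.7 and 18.3 in 1-1 KO, and 2.70, 13.3 and 13.8 in 1-2 KO. All 1-1 KO libraries lay above all WT libraries, a 1.29-fold higher ratio, whereas WT and 1-2 KO overlapped. The 1.29-fold includes WT replicate 3, the lowest of WT at 19.1, which also had the highest FTH1 level of its line. Without 1-2 KO replicate 1, the 1-2 KO libraries were at 22.1 and 23.0, within the range of WT. A two-sided exact permutation test gave p = 0.1 for 1-1 KO compared to WT, the smallest p that 3 libraries against 3 allow, and 0.15 after adjustment over 3 comparisons. The p was 0.5 for 1-2 KO compared to WT and 0.1 between the knockouts.

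The genes that control hepcidin were examined next, as a list of 29 genes other than the members, of which 28 were tested. In 1-2 KO, 20 of 28 were higher and 5 lower, with a median log2 fold change of 0.36, compared to 28.2% higher, 26.2% lower and a median of 0.02 over all genes tested. In 1-1 KO, 10 were higher and 7 lower, with a median of 0.07 compared to 0.01, and the 60.7% called was near the 63.4% of all genes. Several of the genes below were picked for mention after their values had been seen: BMP2, BMP6, ERFE, IL6R, IL6ST, STAT3 and the BMP targets. Among ligands, BMP2 was higher in both knockouts (0.47 in 1-1 KO and 0.39 in 1-2 KO, adjusted p = 6.73e-07 and 6.63e-06). BMP6, a main BMP of hepcidin induction, was also higher in both (2.09 and 1.45), on 5 to 12 counts per WT library. FGL1, a liver-secreted protein that lowers hepcidin, fell from 77.2 ± 5.95 CPM in WT to 34.1 ± 0.314 CPM in 1-1 KO (log2 fold change -1.18, adjusted p = 6.03e-10) and rose to 96.5 ± 6.40 CPM in 1-2 KO (0.32, adjusted p = 0.000236). ERFE, the erythroid hormone that lowers hepcidin, was higher in both (1.83 and 2.42), on 4 to 7 counts per WT library.

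On the side of the co-receptor, TMPRSS6, the protease that cleaves hemojuvelin, rose to 10.2 ± 0.247 CPM in 1-1 KO and 10.9 ± 0.741 CPM in 1-2 KO from 4.62 ± 0.677 CPM in WT (log2 fold changes 1.14 and 1.25, adjusted p = 1.65e-07 and 8.64e-08). NEO1, a receptor that binds hemojuvelin, was higher in 1-2 KO (1.30, adjusted p = 1.85e-09) and not called in 1-1 KO (0.10, adjusted p = 0.258), where it was higher relative to its neighbours (0.50, adjusted p = 4.38e-05). The BMP type I receptor BMPR1B rose in 1-1 KO (0.76, adjusted p = 1.41e-06) and fell in 1-2 KO (-1.92, adjusted p = 1.06e-09), and the type II receptor BMPR2 rose in both (0.95 and 0.29). SMAD9, a signal-carrying SMAD, rose in 1-2 KO (1.26, adjusted p = 3.33e-07) and was at 0.11 in 1-1 KO (adjusted p = 0.450).

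Targets of BMP signalling other than HAMP were then compared. In 1-2 KO, SMAD7 and SMAD6, which inhibit the path that induces them, were higher by 0.66 and 0.48 on the log2 scale (adjusted p = 1.81e-08 and 1.70e-05), the transcription factor gene ATOH8 by 1.50 (adjusted p = 0.000257) and ID1 by 0.46 (adjusted p = 0.0343). In 1-1 KO, SMAD6 was lower (-0.32, adjusted p = 0.000695), ATOH8 was lower (-1.85, adjusted p = 0.00134, on 3 to 7 counts per library), and SMAD7 (0.05, adjusted p = 0.403) and ID1 (0.21, adjusted p = 0.294) were not called. The ID1 call in 1-2 KO was lost with DESeq2 (adjusted p = 0.177), in a fit of the 2 lines (adjusted p = 0.0774), relative to its neighbours (0.21, adjusted p = 0.326), without 1-2 KO replicate 1 (0.23, adjusted p = 0.182) and without WT replicate 1 or 2 (0.30 and 0.39, adjusted p = 0.149 and 0.124). Without WT replicate 3, ID1 was called in 1-1 KO (0.45, adjusted p = 0.0180). Of the interleukin 6 path, IL6R, IL6ST and STAT3 fell in 1-2 KO (-0.80, -0.85 and -0.26, adjusted p = 1.47e-07, 1.33e-10 and 5.03e-05). These genes were at -0.02, 0.02 and 0.08 in 1-1 KO, with adjusted p of 0.768, 0.721 and 0.0950. JAK1 and JAK2 of the same path were also listed. They were not both lower in 1-2 KO, where the 5 lower genes of 28 included BMPR1B. The path as a whole therefore cannot be said to fall in 1-2 KO. STAT3 in 1-1 KO was called without WT replicate 3 (0.11, adjusted p = 0.0258) and with library size alone (0.13, adjusted p = 0.0112). SMAD6 in 1-1 KO turned to 0.12 (adjusted p = 0.129) when the median of its neighbours was subtracted.

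**Figure D4:**
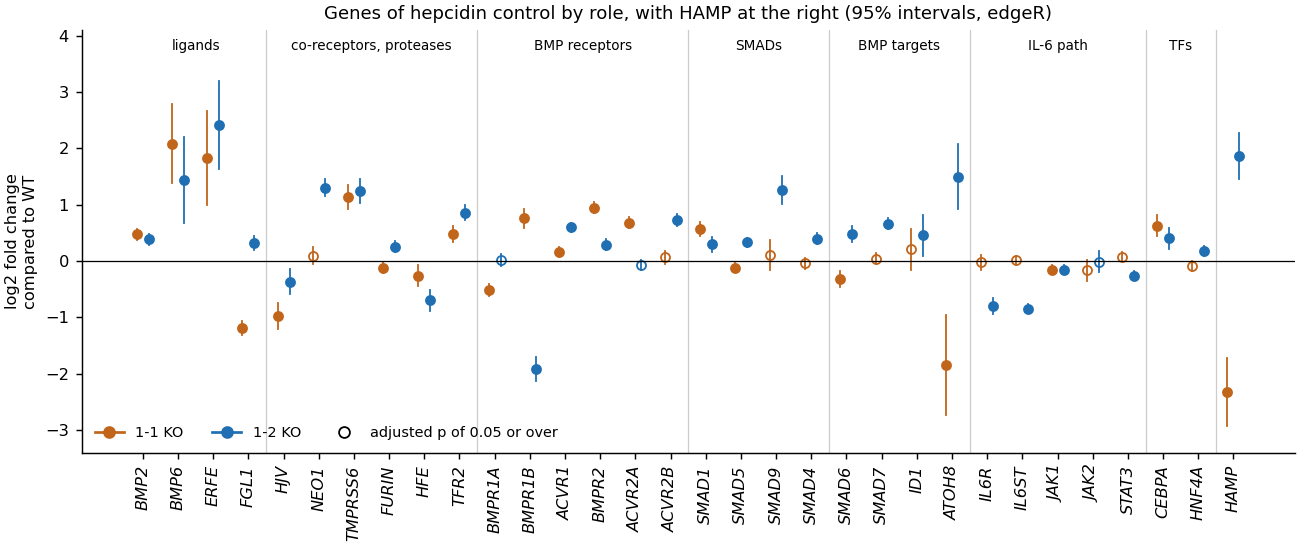
Log2 fold change compared to WT (y axis) of the 28 tested hepcidin control genes other than HAMP, HJV, HFE and TFR2, which are added in their places, grouped by role (x axis). Orange is 1-1 KO, blue is 1-2 KO, bars are 95% intervals from edgeR and open points did not pass an adjusted p of 0.05. In 1-2 KO, 20 of the 28 genes were higher and 5 lower, the lowest being BMPR1B at -1.92.

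Other genes of iron transport did not move together. Of 20 listed, 16 were tested, with 8 higher and 6 lower in 1-1 KO and 5 higher and 8 lower in 1-2 KO. These are 87.5% and 81.25% called, beside 63.4% and 54.4% of all genes. HEPH, a copper-dependent ferroxidase that acts with ferroportin, had 2 to 3 counts per WT library and was at least 145-fold higher in 1-1 KO (12.1 ± 0.552 CPM) and at least 24.2-fold higher in 1-2 KO (2.02 ± 0.399 CPM). These bounds set each WT library at the floor of 3 counts. MELTF, the membrane-bound melanotransferrin, rose to a like degree in both (1.39 and 1.37, adjusted p = 2.38e-07 and 4.14e-07), with a difference between the knockouts of -0.03 (SE 0.11, adjusted p = 0.852). STEAP1, of the metalloreductase family, fell in both (-0.61 and -1.04), and TF, transferrin itself, also chosen after its values were seen, rose in 1-1 KO (0.58, adjusted p = 2.32e-08) and fell in 1-2 KO (-0.22, adjusted p = 0.000344).

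Among 14 tested genes of haem and haemoglobin handling, 6 were higher and 2 lower in 1-1 KO, and 4 were higher and 8 lower in 1-2 KO. The share called was 57.1% in 1-1 KO, below the 63.4% of all genes, and 85.7% in 1-2 KO, beside 54.4%. SLC48A1, a transporter that carries haem out of endosomes, rose in both knockouts (0.82 and 1.41, adjusted p = 1.56e-08 and 6.06e-11). HPX, the plasma scavenger of haem, rose in 1-1 KO (0.67, adjusted p = 8.49e-08) and fell in 1-2 KO (-0.39, adjusted p = 3.54e-05). HP, the plasma scavenger of haemoglobin, fell in 1-2 KO from 5.53 ± 0.241 to 1.26 ± 0.162 CPM (-2.13, adjusted p = 1.48e-09) and was at 0.02 in 1-1 KO (adjusted p = 0.881).

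Of 13 tested genes of IRP regulation, ferritin turnover and iron chaperones, 10 fell and 1 rose in 1-1 KO, where 30.9% of all genes were lower, and their median log2 fold change was -0.26 compared to 0.01. In 1-2 KO, 4 rose and 3 fell, a share of 53.8% beside 54.4% of all genes, and the median was -0.03. NCOA4, the receptor that delivers ferritin to autophagosomes, was lower in both knockouts, at 439 ± 1.79 CPM in 1-1 KO and 279 ± 22.1 CPM in 1-2 KO, compared to 512 ± 15 CPM in WT (log2 fold changes -0.22 and -0.88, adjusted p = 0.00104 and 2.49e-09). Relative to its neighbours NCOA4 was not called in 1-1 KO (-0.05, adjusted p = 0.379). FBXL5, the iron-sensing subunit of the ligase that degrades IRP2, was lower in both as well (-0.31 and -0.53, adjusted p = 0.000140 and 1.32e-06), but relative to its neighbours it was higher in 1-1 KO (0.18, adjusted p = 0.00933). CUL1, the scaffold of that ligase, fell in 1-1 KO (-0.57, adjusted p = 8.42e-09) and rose in 1-2 KO (0.35, adjusted p = 1.30e-06).

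Among other mRNAs with a described IRE, EPAS1 (HIF-2α) rose in 1-1 KO (0.23, adjusted p = 9.30e-05) and fell in 1-2 KO (-0.68, adjusted p = 2.47e-09). CDC42BPA, a kinase, fell in 1-1 KO (-0.63, adjusted p = 6.05e-09) and was at 0.02 in 1-2 KO (adjusted p = 0.760). SDHD, a subunit of complex II, was lower in 1-2 KO (-0.16, adjusted p = 0.00703), whereas CDC14A was called in neither knockout. CDC14A was called in 1-2 KO with library size alone (0.23, adjusted p = 0.0423), and relative to its neighbours in both (0.36 and 0.56, adjusted p = 0.00403 and 0.000132). Of these mRNAs, the IRE pattern used here was found in CDC14A.

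Iron-sulphur cluster assembly and haem synthesis, which consume iron in mitochondria, were compared last. Of 23 iron-sulphur cluster genes, 5 were higher and 12 lower in 1-1 KO (median -0.23), and 7 were higher and 6 lower in 1-2 KO (median -0.02). The 73.9% and 56.5% called stand beside 63.4% and 54.4% of all genes. NFS1, the cysteine desulfurase that supplies the sulphur, fell in both (-0.68 and -0.38, adjusted p = 1.50e-08 and 6.99e-06), and FDXR, ferredoxin reductase, rose in both (1.05 and 0.76, adjusted p = 1.30e-06 and 4.88e-05). Of 12 haem synthesis genes, 2 were higher and 8 lower in 1-1 KO (median -0.30), and 3 were higher and 5 lower in 1-2 KO (median -0.11), or 83.3% and 66.7% called, beside the same shares of all genes. ALAS1, the rate-limiting enzyme of the liver, was lower in 1-1 KO (-0.66, adjusted p = 1.03e-08) and at 0.04 in 1-2 KO (adjusted p = 0.497). ABCB10, a mitochondrial transporter, fell in 1-1 KO (-0.85, adjusted p = 1.01e-08) and rose in 1-2 KO (0.35, adjusted p = 7.38e-05). UROD, which acts midway in the pathway, fell in 1-2 KO (-0.70, adjusted p = 4.15e-08).

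**Figure D5:**
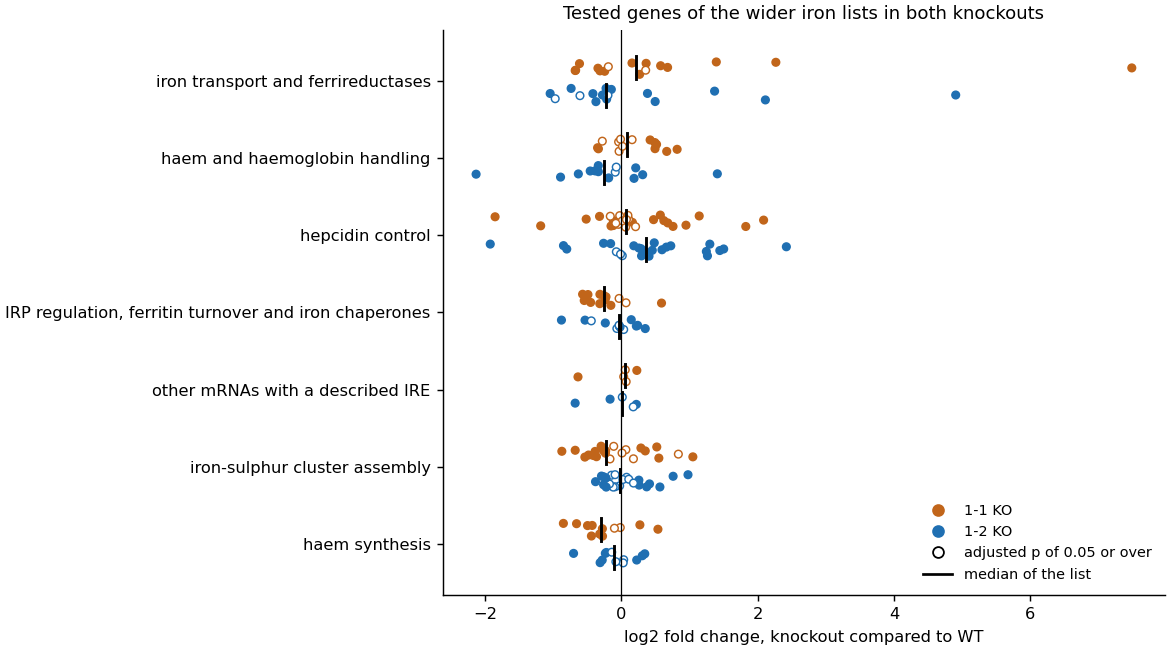
Log2 fold change compared to WT (x axis) of each tested gene in the 7 wider iron lists (y axis), in 1-1 KO (orange) and 1-2 KO (blue), with filled points at an adjusted p under 0.05 and black bars at the list median. Hepcidin control in 1-2 KO has the highest median, 0.36, and the point farthest to the right is HEPH, whose WT libraries were at the floor, so that its plotted value depends on the prior count.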

How the data were processed

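Huh-7 RNA was sequenced in 9 libraries, 3 from each line, as stranded mRNA with paired reads of 50 bases. The deposited values are counts per gene, which the authors obtained by alignment with STAR to GRCh38 (annotation version 104) and counting with featureCounts, without normalization or filtering. The strand setting and the treatment of reads matching several places are not given in the sources used here. Positions came from GENCODE 44, which held 60463 of 60664 identifiers; the other 201 had 0.0192% of the counts.

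Counts were tested in R 4.3.3 with edgeR 4.0.16, by the quasi-likelihood test after filterByExpr (minimum count 10, minimum total 15) and TMM normalization. All 9 libraries entered a single fit with a term per line. P-values were adjusted by Benjamini-Hochberg over 17207 genes and called under 0.05. Every adjusted p is from this test unless DESeq2 (1.42.0) is named. The fit was tested on simulated data with 200 changed genes. CPM used TMM library sizes, and RPKM the length of all annotated exons. A line with at most 3 counts in every library was at the floor. The FTL to FTH1 ratio was compared by an exact permutation test. Figures used Python 3.11.15 and matplotlib 3.10.9.

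The members and lists were chosen with earlier results of these data known. All members are named. Of each wider list, all tested genes are named where there are at most 6, apart from a gene not reported here. Otherwise the rule took, per knockout, the 3 called genes with the largest change among those with a mean of at least 1 CPM and no overlap with WT. It also took ferritin pseudogenes and genes overlapping a member at 1 CPM or more, and the 3 genes nearest in pattern to the 2 members with the widest range. Genes outside this rule are marked in the text. Not all genes taken by the rule are described above, and ferritin pseudogenes are named only in part. In 1-1 KO, MCOLN1 (0.68), CIAO1 (0.59), ALAD (0.54) and SLC46A1 (0.52) were also higher, and IBA57 (-0.87) and GLRX3 (-0.54) lower. Relative to its neighbours MCOLN1 was not called there (0.12, adjusted p = 0.344). FLVCR2, NFU1 and UROS appear below only among values that turned. Alternatives were other scalings and filters, DESeq2, a fit of 2 lines, a replicate block, a threshold of 0.01, subtraction of the median of 50 neighbouring genes, addition of pseudogene counts, and leaving out each library.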

Additional observations from a re-analysis of the deposited data

Results flagged for a closer look

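Of the members and the named genes of the wider lists, 11 were called in opposite directions in the knockouts. The difference between the knockouts was itself called by edgeR for each. Among the members these were HAMP, 4.19 higher in 1-2 KO than in 1-1 KO on the log2 scale, and SLC11A2, 0.58 higher. HAMP was higher than WT in 3 of 3 libraries of 1-2 KO and lower in 3 of 3 of 1-1 KO, and so was SLC11A2. The same order held for ATOH8 (3.35), FGL1 (1.50), ABCB10 (1.19), CUL1 (0.92) and SMAD6 (0.80). The opposite order held for BMPR1B (-2.68), HPX (-1.05), EPAS1 (-0.90) and TF (-0.80). Named genes outside the iron lists met the same rule: H2BC4 (-5.11), SV2A (2.73), MYL7 (6.87) and ENSG00000254510 (7.17). SV2A, MYL7 and ENSG00000254510 had been picked as nearest to HAMP in pattern, and MYL7 and ENSG00000254510 were at the floor in 1-1 KO. Both comparisons share the WT libraries, and each knockout is a single line. Of all genes tested, 63.4% were called in 1-1 KO and 54.4% in 1-2 KO. The share of all genes called in opposite directions was not counted, so the 11 cannot be read as particular to iron genes.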

How the results depend on the processing

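The counts of members called higher and lower stayed within 1.5 times of those reported under every alternative run, from 2 to 3 higher and 5 to 7 lower in 1-1 KO, 4 to 6 higher and 2 to 3 lower in 1-2 KO, and 5 to 7 higher and 2 to 3 lower between the knockouts. HAMP, SLC40A1 and SLC11A2 kept their direction and calls in all 3 comparisons under all of them. The size of the SLC40A1 change in 1-1 KO went from 0.88 to 0.43 relative to its neighbours. Replicate numbers did not pair the libraries: correlations of same-numbered libraries ran from -0.30 to 0.13, with 1 of 9 over 0.1, and 2 of 9 libraries correlated best with their own number. With a replicate block HAMP stood at -2.33 in 1-1 KO and 1.83 in 1-2 KO, and no member's call changed.

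Subtracting the median of 50 neighbouring genes turned 6 member values: FTL (-0.37) and IREB2 (0.13) in 1-1 KO, IREB2 in 1-2 KO (-0.29), and TFR2 (-0.12), HFE (0.83) and IREB2 (-0.39) between the knockouts. It also turned HP (-0.19), CIAO1 (-0.10), FBXL5 (0.18), NFU1 (-0.10), UROD (0.14), UROS (0.22), SMAD6 (0.12) and IL6R (0.57) in 1-1 KO, CDC42BPA (-0.18) and ALAS1 (-0.12) in 1-2 KO, and TMPRSS6 (-0.12) and FDXR (0.22) between the knockouts. Other turns were of values near 0 that were not called. With library size alone FLVCR2 (0.040), UROS (0.036) and IL6R (0.028) turned in 1-1 KO and CIAO1 (0.023) in 1-2 KO, with 10 counts in every library FLVCR2 (0.012) and UROS (0.0078) in 1-1 KO, with DESeq2 NFU1 (-0.0038) and IL6ST (-0.00022), and without a filter NFU1 (-0.0036) and IL6ST (-0.00033). The cause was not tested.

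With single libraries left out, FTH1 in 1-2 KO ran from -0.13 to 1.40, lowest without 1-2 KO replicate 1. Ranges that crossed 0 were -0.019 to 0.047 for IREB2, -0.0046 to 0.070 for ALAS1 and -0.037 to 0.037 for CDC42BPA in 1-2 KO, and -0.0826 to 0.0607 for MELTF between the knockouts. In 1-1 KO they were -0.020 to 0.123 for CDC14A, -0.097 to 0.060 for FLVCR2, -0.0064 to 0.054 for HP, -0.0053 to 0.044 for IL6ST, -0.063 to 0.050 for NFU1 and -0.045 to 0.024 for UROS. FTH1 was called in 1-1 KO without a filter (-0.34) and in a fit of 2 lines (-0.33), and in 1-2 KO without a filter (1.03). Library size alone called FTL in 1-1 KO (0.10) and IREB2 in 1-2 KO (0.083). At a threshold of 0.01, HFE in 1-1 KO and FTH1 between the knockouts were not called.

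Per canonical transcript length, WT levels were 164 RPKM for TFRC, 4.77 for TFR2, 356 for FTH1, 5.37 for HAMP, 41.3 for SLC40A1, 16.5 for SLC11A2, 3.88 for HJV and 43.2 for IREB2. With library size alone they were 46.0 for TFRC, 31.8 for SLC40A1 and 6.73 for SLC11A2. Low counts limit HAMP and ATOH8 in 1-1 KO and BMP6 and ERFE in WT.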

Other observations

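The genes nearest to HAMP in pattern were MYL7, ENSG00000254510 and SV2A, by the Euclidean distance of centred log2 CPM over the 9 libraries among 13350 genes. Their distances were 0.710, 0.719 and 0.954, compared to a median of 3.94 over all genes. MYL7, a cardiac myosin light chain, was at 0.695 ± 0.161 CPM in WT, 0.0242 ± 0.0245 CPM in 1-1 KO and 3.20 ± 0.605 CPM in 1-2 KO. SV2A, a synaptic vesicle protein, was at 12.7 ± 0.512 CPM in WT, 4.12 ± 0.147 CPM in 1-1 KO and 27.4 ± 1.56 CPM in 1-2 KO. The genes nearest to FTH1 were ENSG00000197149, ENSG00000228981 and ENSG00000257199, at distances of 0.771, 0.807 and 0.970, compared to a median of 2.31. All 3 were among the genes over 2-fold higher in 1-2 KO replicate 1 than in the other 1-2 KO libraries, and ENSG00000197149 had 17.8 CPM there, compared to 4.65 and 4.72 CPM in replicates 2 and 3.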
